A study of Mus musculus with 8 samples.

Results

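The genes described here are 10 genes of the Notch pathway, chosen by name: the 4 Notch receptors (Notch1 to Notch4), the ligands Jag1, Jag2 and Dll4, the atypical ligand Dlk1, and the target genes Hes1 and Hey1. All 10 were among the 19938 genes measured, and each had 1 probe set annotated to it alone, so that the rule of taking a gene's probe set with the highest mean over all arrays left nothing to choose. The tissue was the soleus, a calf muscle rich in slow fibres, taken from males aged 5 months in the basal state. The 4 Ts65Dn animals, used as a model of Down syndrome, carry an extra marker chromosome made of parts of chromosomes 16 and 17. The 4 wild-type (WT) colony controls are of the strain B6EiC3SnF1/J, a mix of B6 and C3H background. The labels do not name the background of the Ts65Dn mice. Each mouse gave 1 array of whole muscle, and 0 of the 10 genes lie in the segments carried in an extra copy, although Hes1 is on chromosome 16 and Notch3 and Notch4 are on chromosome 17.

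Notch receptors are cleaved on contact with a ligand on a neighbouring cell. The freed intracellular part enters the nucleus, binds the DNA-binding protein Rbpj and, with Mastermind-like coactivators, turns on genes such as Hes1 and Hey1, which encode transcriptional repressors. In adult skeletal muscle the pathway is best known for keeping satellite cells, the muscle stem cells, in quiescence, and Dll4, Notch4 and Notch3 are known from vessels. Dlk1 encodes a membrane protein with repeats like those of the Delta ligands but without the domain by which those ligands bind Notch. It is expressed from the paternal allele, it is a marker of preadipocytes, and it is known for a role in muscle growth and regeneration.

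Of the 10 genes, Dlk1 and Notch3 were lower in Ts65Dn muscle at a limma adjusted p under 0.05, and 0 were higher, a direction in which 2.32% of all genes were called. Values are log2 RMA values, on which a difference of 1 is a doubling of signal. Over all genes 2.94% were called lower by the same test, and 5.19% of the genes whose mean level lay between those of the dimmest and the brightest of the 10 (3.83 to 5.97). Every call of the comparison lay close to the threshold, since the smallest adjusted p over all genes was 0.0449. A negative fold change was found for 8 of the 10, beside 70.2% of genes at these levels and 60.8% of all genes, and for 5 of the 10 once values were matched for level as described in the next paragraph, beside 50.6% and 49.9% on that scale. The Ts65Dn and WT arrays did not overlap, with Ts65Dn lower, for 3 of them (Dlk1, Notch3 and Jag2), beside 24.2% of genes at these levels and 15.9% of all genes. The share of all genes that did not overlap with Ts65Dn higher was not counted.

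The arrays of the groups differed as a whole, which bears on each value here. The array median over all genes ran from 4.57 to 4.65 in Ts65Dn and from 4.72 to 4.86 in WT, and the interquartile range from 2.70 to 2.81 in Ts65Dn and from 2.09 to 2.48 in WT. WT arrays 2 and 3 stood apart with the highest medians and the narrowest ranges (2.23 and 2.09). Genes at the levels of the 10 had a median log2 fold change of -0.23, against -0.10 over all genes and 0.25 for the 5290 genes brighter than Hes1. Level-matched values are therefore given beside the others: from each value was taken the median shift, in the same array, of the 100 genes closest to it in mean level. On that scale 0.451% of all genes passed the adjusted threshold. Fits with arrays left out used the deposited values, not the level-matched ones. The number of calls over all genes changed when single arrays were left out. In the full set 1049 passed (462 higher and 587 lower), and 6948 of the 19938 had an unadjusted limma p under 0.05, 4503 of them lower. Without any 1 of the Ts65Dn arrays, or without WT array 2 or 3, 0 or 1 passed. In those fits 5271 to 6050 genes had an unadjusted limma p under 0.05. Without WT array 1 14.4% of genes passed, and 12.1% without WT array 4. With arrays brought to a common median the split was 911 higher and 79 lower, with level matching 74 and 16, and with cyclic loess 107 and 35. Amyloid precursor protein (App), which lies in the extra chromosome 16 segment, was at 8.40 ± 0.21 in Ts65Dn and 7.09 ± 0.46 in WT (log2, SD, n = 4 each), in the direction the labels give. The slow myosin heavy chain Myh7 was at 10.52 ± 0.10 in Ts65Dn and 10.26 ± 0.35 in WT (log2, SD, n = 4 each), and the 9 slow-fibre markers had mean levels of 11.78 to 11.91 in Ts65Dn and 11.74 to 11.85 in WT.

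**Figure D1:**
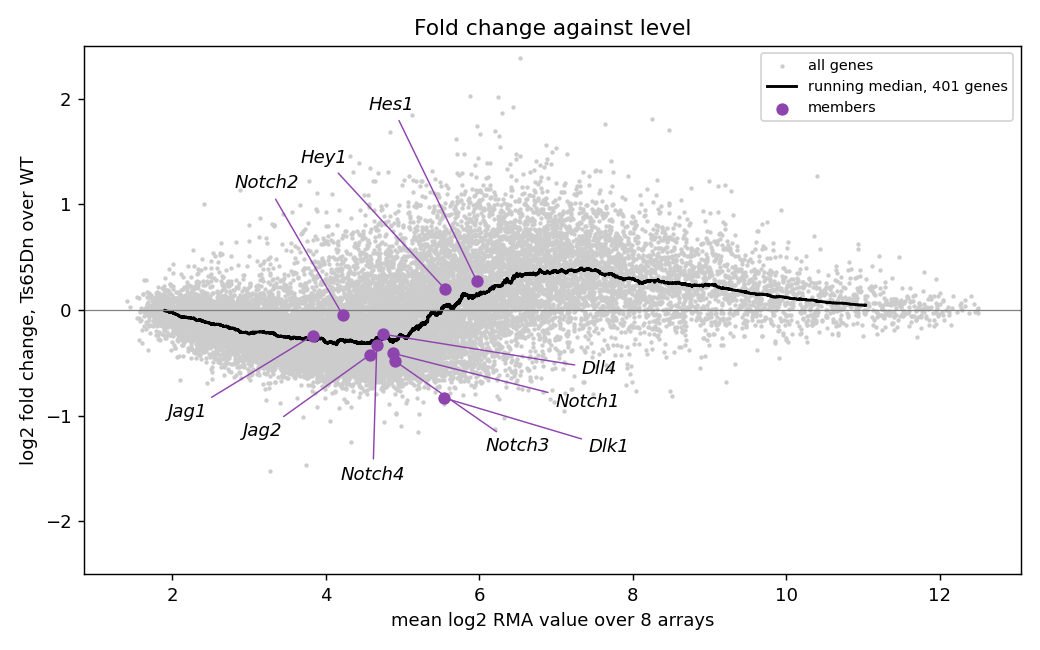
Log2 fold change of Ts65Dn over WT against the mean log2 RMA value over the 8 arrays, for all 19938 genes (grey), with a running median (black line) and the 10 Notch pathway genes (purple). The line lies below 0 at the levels of most of the 10, where genes had a median of -0.23, and Dlk1 at -0.83 lies farthest below it.

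Dlk1 fell by 0.83 on the log2 scale. It was at 4.63, 5.34, 5.37 and 5.16 in Ts65Dn arrays 1 to 4, against 5.57, 6.32, 6.19 and 5.76 in WT arrays 1 to 4. All 4 Ts65Dn arrays were below all 4 WT arrays, with a gap of 0.20 between the highest Ts65Dn array and the lowest WT array. The means were 5.13 ± 0.34 in Ts65Dn and 5.96 ± 0.35 in WT (log2, SD, n = 4 each), a linear fold of 0.562, with a 95% interval of the log2 difference from -1.30 to -0.37 and a limma adjusted p of 0.0493. An earlier analysis of these arrays had already named Dlk1 among the decreases, so this difference is a description and not a fresh test. In whole muscle, fewer cells that express a gene and less RNA per cell cannot be told apart.

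The Dlk1 difference was nearly the same on the level-matched scale. Its level-matched log2 fold change was -0.79, and the groups still did not overlap, which held for 6.55% of all genes in that direction; the limma adjusted p was 0.0782. Over the scalings tried it ran from -0.92 with quantile normalization to -0.65 with arrays brought to a common median. Without WT arrays 2 and 3 together it was -0.54, with an unadjusted limma p of 0.0352 and an adjusted p of 0.268. The lowest Ts65Dn value was that of array 1, and without it the fold change was -0.67. The call was kept without WT array 1 or WT array 4 and was lost without any other single array, with adjusted p-values from 0.0781 (without Ts65Dn array 3) to 0.120 (without WT array 2).

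Notch3, the receptor known from the smooth muscle cells and pericytes of vessels, fell by 0.48. It was at 4.54, 4.66, 4.61 and 4.84 in Ts65Dn arrays 1 to 4, against 5.10, 5.13, 5.34 and 5.00 in WT arrays 1 to 4. The groups did not overlap, and the gap between them was 0.16. The means were 4.66 ± 0.13 in Ts65Dn and 5.15 ± 0.14 in WT (log2, SD, n = 4 each), with a limma adjusted p of 0.0498. Genes at the same level shifted by -0.27 between the groups, so that the level-matched fold change of Notch3 was -0.21 (limma adjusted p = 0.284) and its groups overlapped. Without WT arrays 2 and 3 together the fold change on the deposited scale was -0.39, with an unadjusted limma p of 0.0150 and an adjusted p of 0.220. Like that of Dlk1, the call was kept without WT array 1 or 4 and was lost without any other single array, with adjusted p-values from 0.0870 to 0.121.

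Notch1, the receptor best known in satellite cells, had a fold change of -0.41 that did not pass (limma adjusted p = 0.0940). It was at 4.41, 4.69, 4.89 and 4.67 in Ts65Dn arrays 1 to 4, against 5.01, 5.24, 5.28 and 4.77 in WT arrays 1 to 4. In 3 of the 4 Ts65Dn arrays it was below every WT array, and Ts65Dn array 3 lay above WT array 4. Its level-matched fold change was -0.17. Without WT arrays 2 and 3 together the fold change on the deposited scale was -0.23.

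The promoter-side windows of the receptors are shown for Notch3 and Notch1, the receptors with the largest differences on the deposited scale. RefSeq windows were held for 8 of the 10 genes; those of Dlk1 and Jag2 lie inside the annotated gene span and are not printed. The windows are the 250 bases before the start given in the RefSeq promoter table (GRCm38.p6), both on the minus strand, chr17:32166891-32167140 for Notch3 and chr2:26503823-26504072 for Notch1, 5′ to 3′, with capitals marking GC boxes (GGGCGG or its reverse complement CCGCCC). The last 6 bases of the Notch3 window lie inside the annotated gene span.
Notch3: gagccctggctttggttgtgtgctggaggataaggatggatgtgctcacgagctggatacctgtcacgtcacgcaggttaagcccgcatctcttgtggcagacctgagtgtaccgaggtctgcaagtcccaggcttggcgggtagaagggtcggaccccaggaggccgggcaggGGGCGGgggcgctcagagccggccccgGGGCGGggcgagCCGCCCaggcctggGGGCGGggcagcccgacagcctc
Notch1: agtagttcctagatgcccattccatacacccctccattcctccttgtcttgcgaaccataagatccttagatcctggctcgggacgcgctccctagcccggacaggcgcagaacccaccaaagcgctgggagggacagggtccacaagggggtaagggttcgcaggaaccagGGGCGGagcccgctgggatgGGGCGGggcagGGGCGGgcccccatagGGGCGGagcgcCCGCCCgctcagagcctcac
Notch3 holds 4 GC boxes and Notch1 holds 5, on both strands together. A GC box was found in 5 of the 8 windows, beside 32.7% of all 32851 windows of this length. The letters TGGGAA, the core bound by Rbpj, were in 0 of the 8 windows on either strand, beside 21.6% of all windows. These matches describe the letters of the windows and say nothing on binding.

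Notch4, a receptor of endothelial cells, was at 4.47, 4.23, 4.68 and 4.64 in Ts65Dn arrays 1 to 4, against 4.60, 5.08, 5.20 and 4.44 in WT arrays 1 to 4. Only WT arrays 2 and 3 lay above the Ts65Dn range. The fold change was -0.33 (limma adjusted p = 0.224), -0.06 on the level-matched scale and -0.02 without WT arrays 2 and 3.

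Notch2, the receptor that acts beside Notch1 in satellite cells, was at 4.47, 4.21, 3.97 and 4.14 in Ts65Dn arrays 1 to 4, against 4.43, 4.30, 4.17 and 4.07 in WT arrays 1 to 4. The groups covered the same span, with a fold change of -0.04, a 95% interval from -0.35 to 0.27 and a limma adjusted p of 0.835. Its sign turned with the scaling, from -0.04 to between 0.14 (array medians) and 0.25 (cyclic loess), so no direction can be given for Notch2.

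**Figure D2:**
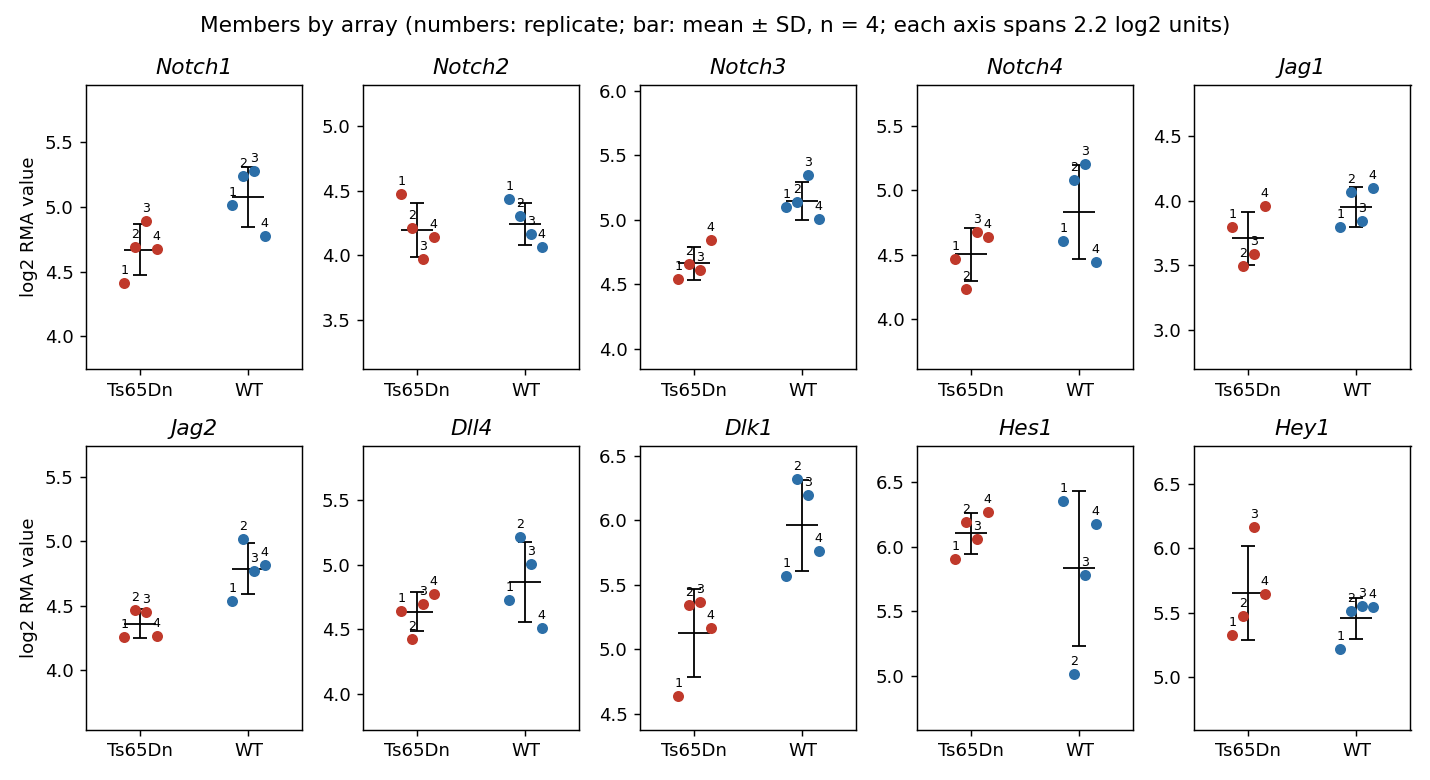
Log2 RMA value of each of the 10 genes in each array (points, with the replicate number beside them), Ts65Dn left and WT right, with the mean ± SD of 4 arrays in black; every panel spans the same number of log2 units. The groups do not overlap for Notch3, Jag2 and Dlk1, and Hes1 spreads from 5.01 to 6.36 in WT.

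The ligands other than Dlk1 gave no call. Jag2, a ligand of the Serrate type, was at 4.26, 4.47, 4.45 and 4.26 in Ts65Dn arrays 1 to 4, against 4.54, 5.02, 4.77 and 4.82 in WT arrays 1 to 4. The groups did not overlap, but the gap was 0.07, and the fold change of -0.42 did not pass (limma adjusted p = 0.0656). It passed without WT array 1 (-0.51, limma adjusted p = 0.0396). On the level-matched scale the Jag2 groups overlapped and the fold change was -0.15.

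Jag1, the other ligand of that type, was at 3.79, 3.49, 3.59 and 3.95 in Ts65Dn arrays 1 to 4, against 3.79, 4.07, 3.84 and 4.10 in WT arrays 1 to 4. Ts65Dn arrays 2 and 3 lay below all WT arrays, and the other 2 within their range. The fold change was -0.24 (limma adjusted p = 0.231), with 0.02 on the level-matched scale and 0.04 with cyclic loess, so that the sign of Jag1 turned with these scalings. Dll4, a Delta ligand of arterial and sprouting endothelium, was at 4.64, 4.43, 4.70 and 4.78 in Ts65Dn arrays 1 to 4, against 4.72, 5.22, 5.00 and 4.51 in WT arrays 1 to 4. As for Notch4, WT arrays 2 and 3 held the high values of Dll4. Its fold change was -0.23 (limma adjusted p = 0.325) and turned to 0.04 on the level-matched scale, 0.01 with cyclic loess and 0.02 without WT arrays 2 and 3.

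The target genes Hes1 and Hey1 were the only ones of the 10 with positive fold changes on the deposited scale (Notch2, Jag1 and Dll4 joined them after level matching), and neither passed. Hes1, a repressor of the hairy family, was at 5.90, 6.20, 6.06 and 6.27 in Ts65Dn arrays 1 to 4, against 6.36, 5.01, 5.78 and 6.18 in WT arrays 1 to 4. The Ts65Dn values lay within the WT range, which was 1.34 wide against 0.36 in Ts65Dn. The Hes1 fold change of 0.27 (limma adjusted p = 0.445) rested on WT array 2: it was -0.000487 without that array and -0.16 without WT arrays 2 and 3.

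Hey1, a related repressor of vessels and satellite cells, was at 5.33, 5.48, 6.17 and 5.65 in Ts65Dn arrays 1 to 4, against 5.22, 5.52, 5.55 and 5.54 in WT arrays 1 to 4. Ts65Dn array 3 was the highest and WT array 1 the lowest of all 8. The fold change was 0.20 (limma adjusted p = 0.436, 95% interval -0.20 to 0.59) and 0.03 without Ts65Dn array 3.

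**Figure D3:**
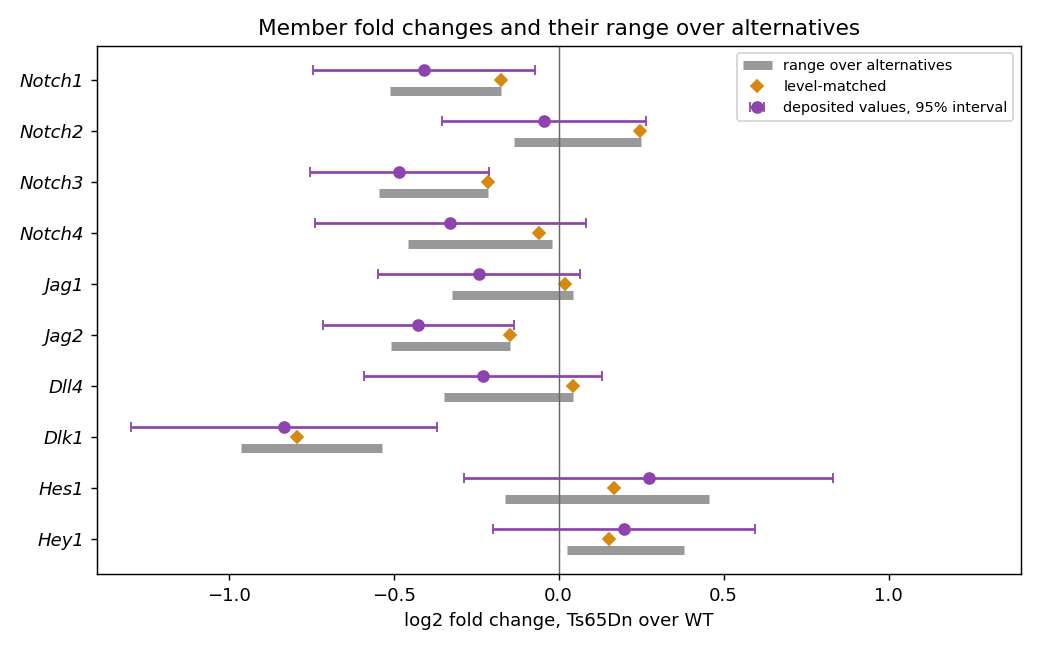
Log2 fold change of Ts65Dn over WT for each of the 10 genes: deposited values with the 95% interval of limma (purple), level-matched value (orange) and the range over all alternatives tried (grey bar). The whole grey bar lies below 0 for Notch1, Notch3, Notch4, Jag2 and Dlk1, and for Dlk1 it runs from -0.96 to -0.54.

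Among the 10, level matching left 5 negative and 5 positive fold changes with a median of -0.02, against a median of -0.28 on the deposited scale. At an unadjusted limma p under 0.05 there were 4 lower genes (Dlk1, Notch3, Jag2 and Notch1) and 0 higher, beside 35.2% of genes at these levels and 22.6% of all genes that were lower at that p. On the level-matched scale Dlk1 alone had an unadjusted limma p under 0.05 and a negative sign (0.00241), as did 9.51% of all genes.

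The profile over the 8 arrays was compared between genes as the root mean square difference of mean-centred log2 values. Nearest to Dlk1 were Map3k21 (0.120), Hsd17b14 (0.127) and Krtap10-10 (0.131), against a root mean square of 0.513 for the Dlk1 profile itself. Nearest to Notch3 were Gramd4 (0.0328), Chrm2 (0.0503) and Dcdc2a (0.0505). For Notch1 they were Myrip, Mfsd7a and Klc3 (0.0521 to 0.0584), for Notch4 Fam83c, Mat1a and Kif21b (0.0635 to 0.0772), and for Notch2 Serpini1, Prkci and Gja5 (0.0689 to 0.0748). The profiles share the array-wide differences described above.

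The rest of the pathway was described by 8 lists, with a ninth list of imprinted genes beside Dlk1. Of 73 measured genes 3 were called higher and 2 lower, 6.85% beside 5.26% of all genes, and their median log2 fold change was -0.08. The count was 0 without any 1 of the Ts65Dn arrays and without WT array 2 or 3, and it was 17 without WT array 1 and 11 without WT array 4, beside the shares of all genes given above for the same arrays. With arrays brought to a common median 5 were called higher and 0 lower. The count was 1 on the level-matched scale, and that gene was Numb.

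In the lists other than that of imprinted genes, the calls with a positive sign were a gene of receptor inhibition and one of receptor cleavage. The remaining higher call was Igf2r, of the imprinted list. Numb, an endocytic adaptor that inhibits Notch, rose by 0.70. It was at 5.68, 5.72, 5.88 and 5.96 in Ts65Dn arrays 1 to 4, against 5.06, 5.20, 5.01 and 5.16 in WT arrays 1 to 4. The groups of Numb did not overlap, in a direction for which no share of all genes was counted. The limma adjusted p was 0.0456, and 0.0426 for the level-matched fold change of 0.74. The fold change was 0.70 without WT arrays 2 and 3. Numb was the 1 call among 10 genes of receptor turnover, where 5 fold changes were positive and 5 negative.

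Nicastrin (Ncstn), the gamma-secretase subunit that binds the substrate, rose by 0.72, the 1 call among 9 measured genes of receptor proteolysis. It was at 6.39, 6.21, 6.26 and 6.37 in Ts65Dn arrays 1 to 4, against 5.91, 5.34, 5.50 and 5.61 in WT arrays 1 to 4, with a limma adjusted p of 0.0456. The groups did not overlap. The level-matched value was 0.62 (limma adjusted p = 0.0564). On the deposited scale the fold change was 0.54 without WT arrays 2 and 3. Adam10 and Adam17, the proteases that make the first cut after ligand binding, were picked out after their values were seen. They had fold changes of 0.96 and 0.74 that did not pass (limma adjusted p = 0.0600 and 0.0594). Their Ts65Dn arrays lay above all WT arrays, and WT array 3 was lowest for both. For groups apart in this direction, as for Ncstn, no share of all genes was counted. Level-matched, they were at 0.99 and 0.40, and the Adam17 groups overlapped. Of the list, 5 fold changes were positive and 4 negative. The negative ones, which did not pass, were Aph1b (-0.52), Aph1c (-0.51), Psen2 (-0.31) and Psenen (-0.09).

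Pofut1, the enzyme that adds O-fucose to Notch, fell by 0.48, the 1 call among 7 genes of receptor glycosylation. In that list 6 had negative fold changes, beside 60.8% of all genes, and the median was -0.29, and -0.04 level-matched. The values of Pofut1 follow. It was at 4.88 ± 0.09 in Ts65Dn and 5.36 ± 0.14 in WT (log2, SD, n = 4 each), with a limma adjusted p of 0.0475. The groups did not overlap. Its level-matched fold change was -0.34 (limma adjusted p = 0.115).

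Hes5, another repressor induced by Notch, fell by 0.50. It was at 5.72, 5.79, 6.02 and 5.71 in Ts65Dn arrays 1 to 4, against 6.16, 6.38, 6.48 and 6.21 in WT arrays 1 to 4, and the groups did not overlap. The limma adjusted p was 0.0493, and 0.0539 for the level-matched fold change of -0.66; without WT arrays 2 and 3 the fold change was -0.37. It was the 1 call among 7 other target genes, of which 6 had negative fold changes, beside 60.8% of all genes. The list's median was -0.06, and 0.10 level-matched.

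Of 6 other ligands 0 were called by limma, with 4 lower at an unadjusted p under 0.05, beside 22.6% of all genes. The list's median was -0.36, and -0.08 level-matched. Dlk2, the paralog of Dlk1, was at 5.00, 5.27, 5.30 and 4.93 in Ts65Dn arrays 1 to 4, against 5.36, 6.14, 6.23 and 5.42 in WT arrays 1 to 4. The groups did not overlap, but WT arrays 2 and 3 were the high ones. The Dlk2 fold change was -0.66 (limma adjusted p = 0.0695), and -0.26 without those arrays. Its level-matched value was -0.64 (limma adjusted p = 0.125), and its groups still did not overlap. Mfap2, a microfibril protein that binds Jagged ligands, had a fold change of -0.62 (limma adjusted p = 0.0598), and -0.33 without WT arrays 2 and 3. Level-matched it was -0.71 (limma adjusted p = 0.0836), and its groups did not overlap on either scale. Of 6 genes of ligand ubiquitination 0 were called by limma, with 1 higher and 2 lower at an unadjusted p under 0.05. Of all 19938 genes 6948 were under that p, 4503 of them lower. The ubiquitin ligase Mib1 had a fold change of 0.60 and Neurl1b one of -0.51.

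In the nucleus, 0 of 8 genes of the activation complex and 0 of 8 corepressors were called by limma. At an unadjusted limma p under 0.05 there were 1 higher and 1 lower among the first and 1 higher among the second. Of all 19938 genes 6948 were under that p, 4503 of them lower. Rbpj itself was at 6.85 ± 0.22 in Ts65Dn and 6.52 ± 0.55 in WT (log2, SD, n = 4 each; limma adjusted p = 0.350). The coactivators Maml1 and Maml2 had fold changes of -0.27 and -0.45 that did not pass. The acetyltransferase Ep300 was at 6.99 ± 0.01 in Ts65Dn and 5.85 ± 0.82 in WT (log2, SD, n = 4 each), and its fold change of 1.14 (limma adjusted p = 0.0579) was 0.50 without WT arrays 2 and 3. Among the corepressors the histone deacetylase Hdac2 had a fold change of 0.36 and Ctbp2 one of -0.30.

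**Figure D4:**
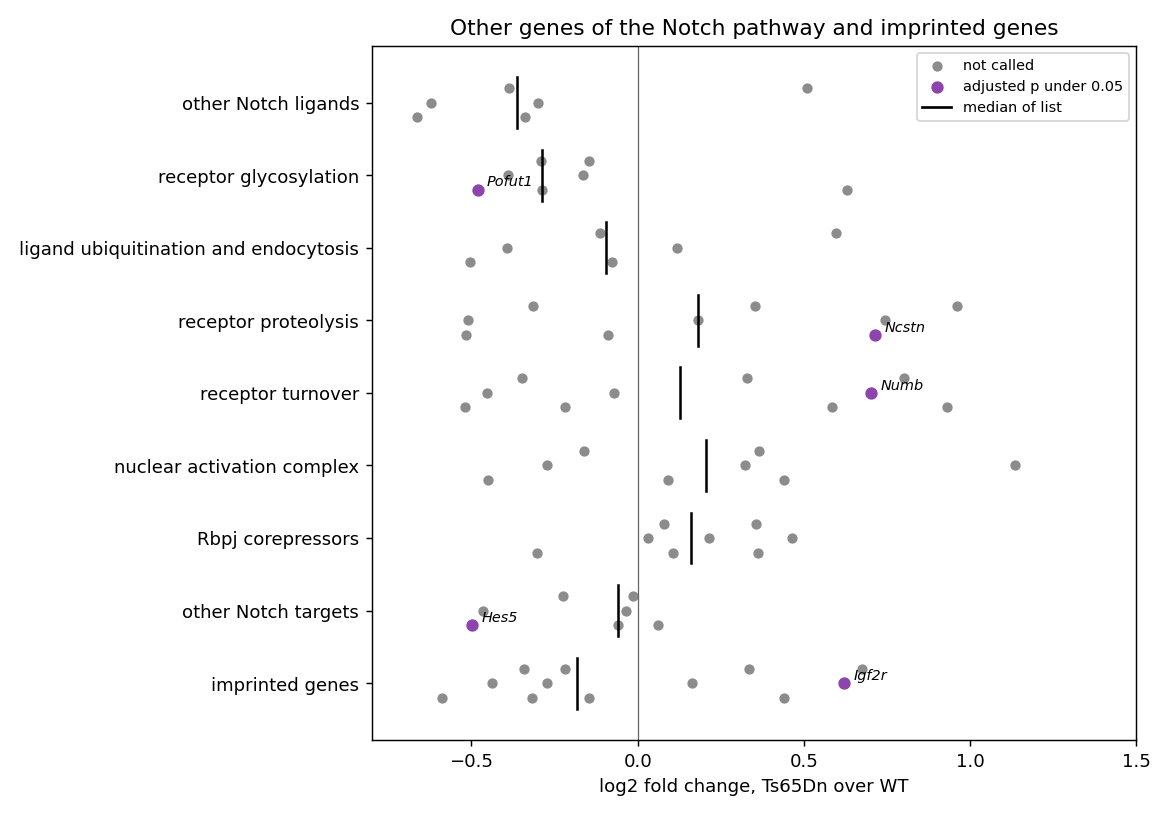
Log2 fold change of Ts65Dn over WT for each measured gene of the 9 lists (points, called genes in purple with their names) and the median of each list (black bar). Pofut1 and Hes5 are the lower calls, and Ncstn, Numb and Igf2r the higher ones.

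Dlk1 lies in a cluster of imprinted genes on chromosome 12. Its neighbours Meg3, a maternally expressed noncoding RNA, and Rtl1 had negative fold changes, which did not pass. A negative sign was found for 60.8% of all genes. Meg3 was at 3.79, 3.46, 3.45 and 3.35 in Ts65Dn arrays 1 to 4, against 3.87, 4.46, 4.52 and 3.55 in WT arrays 1 to 4. WT arrays 2 and 3 held its high values: the fold change was -0.59 (limma adjusted p = 0.0901) with all arrays and -0.20 without those. Level-matched, the Meg3 fold change was -0.34 (limma adjusted p = 0.305). That of Rtl1 was -0.34 on the deposited scale, and -0.07 level-matched. Of 12 measured imprinted genes 1 was called, the receptor Igf2r, which rose by 0.62 (limma adjusted p = 0.0469). Its level-matched value was 0.22, a value at which it did not pass.

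Markers of the cell types that could carry these genes were read in the same arrays. Of 72 measured markers in 10 lists 4 were called higher and 0 lower, 5.56% beside 5.26% of all genes, and the count was 0 without any 1 of the Ts65Dn arrays or WT array 2 or 3 and 8 without WT array 1 or 4. In the endothelial list the VEGF receptor Kdr rose by 0.99 (limma adjusted p = 0.0449) and Emcn by 1.18 (limma adjusted p = 0.0456), with 8 of 11 fold changes positive. Without WT arrays 2 and 3 Kdr was at 1.03 and Emcn at 0.73. Level-matched, Kdr was at 1.27 (limma adjusted p = 0.0160) and Emcn at 1.13 (limma adjusted p = 0.0564). The mean level of that list was 5.58 to 5.93 in Ts65Dn and 5.22 to 5.54 in WT, so that the groups did not overlap. How often this held for other sets of genes was not counted. The list's median fold change was 0.14, and 0.17 level-matched. Cldn5 (-0.30), Esam (-0.18) and Tie1 (-0.04) had negative fold changes, as had 60.8% of all genes. Notch4 and Dll4, which endothelial cells also express, had fold changes of -0.33 and -0.23 that did not pass. Level-matched, these were -0.06 and 0.04. Cdh5 (0.54) and Pecam1 (0.58) did not pass. Of 6 arterial markers 0 were called by limma. At an unadjusted limma p under 0.05 there were 2 lower, Sema3g (-0.42) and Gja4 (-0.38), beside 22.6% of all genes.

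For the cells that express Notch3, 0 of 9 smooth muscle and pericyte markers were called by limma, with 1 higher at an unadjusted p under 0.05. Of all 19938 genes 6948 were under that p, 4503 of them lower. The list's mean level was 5.91 to 6.14 in Ts65Dn and 5.72 to 5.97 in WT, and 7 of 9 fold changes were positive, with Abcc9 at 0.65 and Acta2 at 0.49 (0.22 and 0.42 without WT arrays 2 and 3). Of 9 satellite cell markers 0 were called by limma, with 2 higher and 1 lower at an unadjusted p under 0.05, beside the same counts of all genes. The satellite cell list's mean level was 4.97 to 5.15 in Ts65Dn and 5.04 to 5.16 in WT. Pax7, the factor that defines satellite cells, was at 4.78 ± 0.17 in Ts65Dn and 5.07 ± 0.17 in WT (log2, SD, n = 4 each), a fold change of -0.29 (limma adjusted p = 0.149) that was 0.02 on the level-matched scale. Vcam1 had 0.46 and Cdh15 -0.52.

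For Dlk1, the lists of fibro-adipogenic progenitors, adipocytes and immature fibres apply. Pdgfra, the receptor that marks the progenitors, rose by 0.62 (limma adjusted p = 0.0456), the 1 call among 7 measured. Its level-matched value was 0.76 (limma adjusted p = 0.0445). Fold changes were positive for 4 of the 7 and negative for 3, Col1a1 (-0.35), Pi16 (-0.22) and Col3a1 (-0.06). That list's mean level was 6.93 to 7.10 in Ts65Dn and 6.65 to 6.91 in WT. Of 6 adipocyte markers 0 were called by limma. At an unadjusted limma p under 0.05 there was 1 lower, the lipid droplet protein Plin1 (-0.34), beside 22.6% of all genes. Cidec had -0.36. The adipocyte list's mean level was 5.63 to 6.20 in Ts65Dn and 5.90 to 6.41 in WT. Of 6 immature fibre genes 0 were called by limma, with 2 higher and 1 lower at an unadjusted p under 0.05. Of all 19938 genes 6948 were under that p, 4503 of them lower. The fetal acetylcholine receptor subunit Chrng had -0.57 and embryonic myosin Myh3 had 0.64. The macrophage protein Cd68 rose by 2.39 (limma adjusted p = 0.0475), the 1 call among 6 macrophage markers. Its level-matched value was 2.10 (limma adjusted p = 0.0909). Fold changes were positive for 4 of the 6 and negative for Adgre1 (-0.05) and C1qa (-0.09). Of 3 measured Schwann cell markers 0 were called by limma, with Pmp22 at 0.48 and Sox10 at -0.35. The part of these cell types in the values of the 10 genes was not tested.

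**Figure D5:**
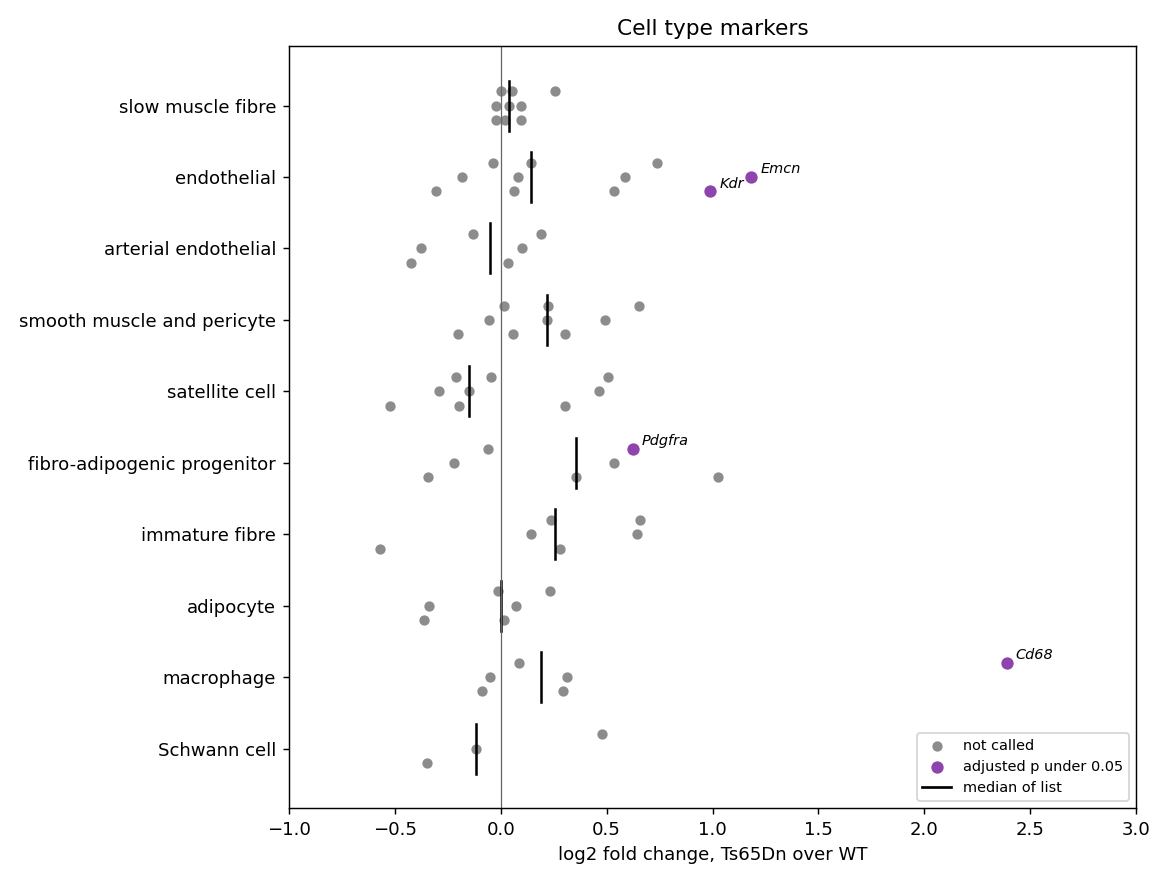
Log2 fold change of Ts65Dn over WT for each measured marker of 10 cell type lists (points, called genes in purple with their names) and the median of each list (black bar). Kdr, Emcn, Pdgfra and Cd68 are the called markers, all higher, and the slow muscle fibre markers lie between -0.02 and 0.26.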

How the data were processed

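Total RNA of soleus muscle was hybridised to 1 array per mouse, per the labels' protocols after whole-transcript amplification. The authors deposited log2 values made with Affymetrix Expression Console 1.1 and RMA at the gene level, per the submitters' processing notes. In its usual form RMA subtracts background, brings arrays to a common distribution and gives 1 value per probe set. The deposited arrays were not on a common distribution, since their medians and interquartile ranges differed as given above. The log2 scale was read from the range of the values. No detection calls were used here, so whether a dim gene was above background is not known. The number of arrays limits the precision. Of 35556 probe sets, 21789 had 1 gene symbol, updated through the Entrez identifier with RefSeq (GRCm38.p6) where possible. Where a gene had more than 1 (999 genes), the brightest by mean was kept, which gave 19938 genes.

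The test was limma's (version 3.58.1, R 4.3.3; lmFit, then eBayes), two-sided. Its p-values were adjusted by Benjamini-Hochberg across the whole set of genes, and those under 0.05 are called. The procedure was tested on simulated data with independent noise per gene and no array-wide shift. That test therefore does not cover the differences between whole arrays described above. The arrays were grouped by their labels, with no covariate. Tables and plots were made with Python 3.11.15, pandas 2.3.3 and matplotlib 3.10.9. The 10 genes and all lists were chosen with earlier results of these data known. Apart from genes picked after their values were seen, naming followed a fixed rule. It took the 10 genes, and up to 3 called members of a list or otherwise the 2 with the smallest p. A few were set by name (Rbpj, Maml1, Meg3, Rtl1, Pax7, Pecam1, Cdh5, Myh7, App). For Dlk1 and each receptor it took the 3 nearest profiles among genes with a name that is not a predicted one. Adam10 and Adam17 were picked after their values were seen. So were the negative members named in the receptor proteolysis, endothelial, progenitor and macrophage lists. Some genes of the lists are not reported here. Same-numbered Ts65Dn and WT arrays had correlations of their deviations from the group means between 0.01 and 0.09. For differently numbered arrays these lay between -0.12 and 0.09.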

Additional observations from a re-analysis of the deposited data

Results flagged for a closer look

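Hey1 in WT array 1 was at 5.22, below the other WT arrays, which lay between 5.52 and 5.55. Its distance from them, as a share of the WT range, was 0.89, above Dixon's critical value of 0.829 for 4 arrays. Of the groups tested in this way, 10 genes in each of the Ts65Dn and WT groups, it was the only one; chance alone gives such a value in about 1 of 20 groups.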

How the results depend on the processing

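Of the 10 genes limma called 2, Dlk1 and Notch3. The count was 0 with quantile normalization, array medians, level matching, cyclic loess, the 6 of them above the median gene level, all probe sets adjusted together, array weights, and without WT arrays 2 and 3 together; it was 1 with an intensity trend and robust estimation, and 0 to 3 with single arrays left out. The count of 5 among 73 pathway genes was 0 with quantile normalization, all probe sets and without WT arrays 2 and 3, 1 with level matching, 2 with cyclic loess or array weights, 3 above the median level and with the trend, 5 with array medians (all higher), and 0 to 17 with single arrays left out. The count of 4 among 72 markers was 0 with quantile normalization, all probe sets and without WT arrays 2 and 3, 2 with level matching and cyclic loess, and 0 to 8 with single arrays left out. With the replicate block the counts were 0 of the 10 genes, 0 pathway genes and 0 markers. Dlk1 stayed at -0.83 there, with an unadjusted limma p of 0.000206 and an adjusted p of 0.0530. The labels do not say whether same-numbered arrays were paired, so whether these counts measure a weaker effect is not known. Over all genes limma called 1049, against 0 with quantile normalization, 90 with level matching and 0 to 2865 with single arrays left out. The causes were not tested.

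Signs turned as follows, on the log2 scale. Notch2, at -0.04, was 0.19 with quantile normalization, 0.14 with array medians, 0.25 with level matching, 0.25 with cyclic loess, and with single arrays left out it ran from -0.14 to 0.032 (without Ts65Dn array 3), with 0.019 without WT array 1. Jag1 was 0.019 with level matching and 0.042 with cyclic loess. Dll4 was 0.045 with level matching, 0.011 with cyclic loess and 0.018 without WT arrays 2 and 3. Hes1 ran from -0.000487 (without WT array 2) to 0.45 with single arrays left out, and was -0.16 without WT arrays 2 and 3. The signs of Notch1, Notch3, Notch4, Jag2, Dlk1 and Hey1 held under every alternative run. Precision is limited by 4 arrays per group, by the low signal of most of the 10 genes, and by the difference in array range between the groups.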
